A study of Mus musculus with 4 samples.

Results

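Axon guidance ligands and receptors were followed in the fetal mouse lung at E18.5, close to term, through the probe sets of Affymetrix arrays that are annotated to 1 gene with a symbol starting with Epha, Ephb, Efna, Efnb, Sema, Plxn, Slit1 to Slit3, Robo, Ntn or Unc5. By this rule there were 70 genes of 18193 read by the arrays, with 151 of 45137 probe sets, 97 on the array design MOE430A and 54 on MOE430B. The prefixes also took 5 probe sets of Unc50, Unc5cl and Plxna4os1, which are not known as guidance ligands or receptors, and these were kept apart. The remaining 146 probe sets read 67 genes of the guidance families.

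Total RNA came from wild type lungs (genotype label BALB/c) and from lungs of Myf5-/-:MyoD-/- embryos (genotype label BALB/c Myf5:Myod null). Myf5 and Myod1 encode myogenic transcription factors, and embryos that lack both form no skeletal muscle and make no breathing movements before birth. The series title asks what skeletal muscle contributes to the developing lung. Each genotype was hybridised to 1 array of each design, 4 arrays in all, and neither pooling of embryos nor the sharing of an RNA sample by both arrays of a genotype is stated. There was no replicate, so no test between the genotypes could be made, and the small number of arrays limits the precision of every value.

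Guidance cues were named for their steering of growing axons, but lung epithelium, mesenchyme, vessels and nerves use them too. Semaphorins signal through plexins, with neuropilins as co-receptors for most secreted class 3 semaphorins. Ephrins sit on the cell membrane and bind Eph receptor tyrosine kinases on neighbouring cells, Slits are secreted ligands of Robo receptors, and netrins bind Dcc, neogenin and Unc5 receptors. In fetal lung, semaphorins and netrins have been studied in branching of the airway epithelium, and ephrin-B2 marks arterial endothelium.

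Markers of the labelled tissue were read, beside those of other tissues. The 10 lung genes examined all passed the signal filter on MOE430A, with Sftpc, a surfactant protein, at 78525 in the wild type array and 113337 in that labelled double knockout. In the same order, summed signals on MOE430A were 184356 and 245019 over 13 lung probe sets. Those of cardiac muscle markers were 237759 and 273313 over 7, so a guidance signal cannot be assigned to lung cells alone. Myod1 went against the labels. Its MOE430A probe set read 85 in the wild type array and 1081 in the other, and passed the filter only through the latter. Its MOE430B probe set read 337.2 and 607.2, did not pass, and is of a type that may cross-hybridise. Myf5 read 110.5 and 8.94, both under the floor of 283.8 used below. The position of these probe sets relative to the deleted parts is unknown here, so the arrays are called by their label. The brightest Xist probe set read 7600 and 2749 in the same order, and the brightest Kdm5d probe set, of a Y-linked gene, 286.5 and 737.4, so sex cannot be told apart from genotype. Markers of thymus and T lineage cells were lower by all 14 passing probe sets on MOE430A, with a median log2 ratio of -2.85, and by all 7 on MOE430B, with -0.71.

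Signals are linear MAS5 values, given below in the order wild type, labelled double knockout. A probe set passed when the higher signal reached the median of its design (787.4 on MOE430A, 855.1 on MOE430B), and it is called bright when that signal reached the 75th percentile (1828 and 1979). A probe set under the median in wild type could thus pass only as higher. Under the median in the other array, a probe set could pass only as lower. Log2 ratios are of the array labelled double knockout over wild type, so a value above 0 means higher in the former. With no replicate, a stand-in for the error of 1 log2 ratio was taken from 100 probe sets present on MOE430A and MOE430B alike. Of these 76 were bright, and the SD was 0.245. It is called the SD of a single ratio below, and it was not measured between animals or for dim probe sets alone. Passing probe sets of 1 gene differed by an SD of 0.37 on MOE430A and 0.71 on MOE430B over all genes, and by 0.44 and 0.63 over the guidance members.

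Of the 146 guidance probe sets, 87 passed, 43 on MOE430A and 44 on MOE430B, and 54 of 67 genes had at least 1 that did. The 13 genes without one were Sema3b, Sema4a, Sema6b, Epha1, Epha6, Epha8, Epha10, Ephb6, Robo2, Slit1, Slit3, Ntn3 and Ntng2. Nothing is concluded about these genes.

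Pooled over all guidance families, members lay mostly above 0 on MOE430A and evenly about 0 on MOE430B. On MOE430A, 30 of 43 passing guidance probe sets (69.8%) were higher in the array labelled double knockout, against 49.9% of all 12203 passing probe sets, and 13 were lower, against 50.1%. The median log2 ratio was 0.17, against 0.00 for all. On MOE430B, 21 of 44 (47.7%) were higher, against 49.9% of 12892, 23 were lower, against 50.1%, and the median was -0.01. The 100 probe sets on both designs also read lower ratios on MOE430B, with a mean difference in log2 ratio of -0.215 (MOE430B minus MOE430A), so the gap between the member medians cannot be told apart from an offset between the designs. Without the signal filter, 45 of 94 members on MOE430A were higher and 30 lower, the rest had both signals at the floor, and the median was 0.00. Family medians reached 0.33 on MOE430A, for semaphorins of classes 4 to 7, and among families with at least 3 passing probe sets ran from -0.49 for class 3 semaphorins to 0.62 for netrins on MOE430B. The netrin median lies between the values of the Ntng1 probe sets, which passed only through the array labelled double knockout. In tissue RNA, fewer cells of a type and less RNA per cell cannot be told apart.

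Past 1.5-fold, the members on MOE430A lay mostly on the higher side. There, 8 of 43 were at least 1.5-fold higher, against 6.38% of all passing probe sets, and 1 was at least 1.5-fold lower, against 7.31%. On MOE430B, 6 of 44 were at least 1.5-fold higher, against 18.6%, and 7 at least 1.5-fold lower, against 15.5%, which is near the background. At 2-fold the MOE430A counts were 2 higher (1.8% of all) and 1 lower (2.05%), and those of MOE430B 5 higher (9.7%) and 2 lower (8.0%). The filter fixed the direction of many members past 1.5-fold. Both Sema3f probe sets, Sema6c and Efnb1 on MOE430A passed only through the array labelled double knockout. So did Sema5b, Slit2, Robo3, Ntn5 and Ntng1 on MOE430B. Unc5b on MOE430A and Sema6d, Plxna4 and Unc5d on MOE430B passed only through wild type. The shares of all probe sets were taken after the same filter.

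The MOE430A members past 1.5-fold were dim. Of the 11 bright guidance probe sets on that design, 6 were higher and 5 lower and 0 were past 1.5-fold in either direction, where 4.38% of all bright probe sets were higher by that much and 5.03% lower. The 8 higher ones were among 32 with signals between the median and the 75th percentile, where 8.45% of all probe sets were at least 1.5-fold higher, and 1 was that much lower, against 9.66%. With the mean over the probe sets of each gene, 4 genes in place of 8 probe sets were past 1.5-fold. On MOE430B, 18 of 27 bright members (66.7%) were lower, against 54.4% of all bright probe sets, and with arrays scaled on bright probe sets alone the counts were 13 higher and 13 lower. At least 1.5-fold lower were 6, against 10.8%, and 1 was that much higher, against 11.1%. Of its 17 dimmer members, 5 were at least 1.5-fold higher, against 26.4%, and 1 lower, against 20.2%.

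By role, ligands and receptors were higher in like shares on MOE430A, 18 of 26 passing ligand probe sets (69.2%) and 12 of 17 receptor probe sets (70.6%), against 49.9% of all. At least 1.5-fold higher were 7 ligand probe sets of 6 genes (26.9%) and 1 of a receptor (5.88%), against 6.38% of all and 8.45% of the dimmer ones. That much lower were 0 and 1, against 7.31%, and the medians were 0.18 and 0.13. On MOE430B, the 23 ligand probe sets had a median of 0.05 and the 21 receptor probe sets -0.03. The difference between ligands and receptors was not tested.

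**Figure D1:**
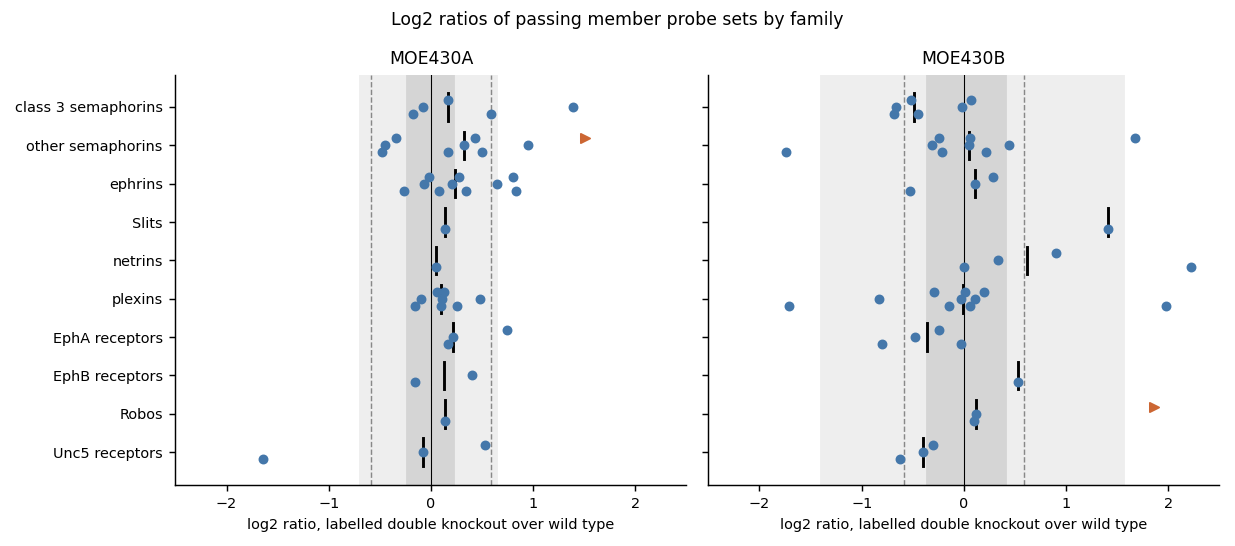
Log2 ratio of each passing guidance probe set (points) by family on both designs, with the family median as a black bar, and triangles for ratios that are lower bounds because 1 signal was below the floor. Dark and light grey bands hold the middle 50% and 90% of all passing probe sets (on MOE430A from -0.69 to 0.65, on MOE430B from -1.40 to 1.56 for the light band), dashed lines mark 1.5-fold, and most points lie within the light band on either design.

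The DNA just before the start sites of members past 1.5-fold is shown because the genes deleted by label, Myf5 and Myod1, encode factors that bind E-boxes. In the 250 bases before each RefSeq start site (GRCm38.p6), the E-box CAGCTG, which reads the same on both strands, was searched for. RefSeq windows were found for 58 of the 67 guidance genes, 74 windows in all, and 12 of these (16.2%) held CAGCTG, against 13.0% of 32851 windows of all genes. The median G and C content was 64.0% in member windows and 52.4% in all. Counted by gene, 12 of the 58 held it in at least 1 window, and a share by gene over all genes was not computed. Of 20 genes past 1.5-fold by at least 1 probe set, 17 had a window and 4 of these held the motif, which is in capitals:

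Ntn5 (GRCm38.p6, chr7:45683772-45684021, plus strand): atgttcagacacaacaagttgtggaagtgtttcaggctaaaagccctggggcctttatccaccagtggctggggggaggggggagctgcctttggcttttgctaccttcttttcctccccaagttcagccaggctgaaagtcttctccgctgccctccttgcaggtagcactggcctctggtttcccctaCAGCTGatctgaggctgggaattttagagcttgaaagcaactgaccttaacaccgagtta

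Plxnb3 (GRCm38.p6, chrX:73756853-73757102, plus strand): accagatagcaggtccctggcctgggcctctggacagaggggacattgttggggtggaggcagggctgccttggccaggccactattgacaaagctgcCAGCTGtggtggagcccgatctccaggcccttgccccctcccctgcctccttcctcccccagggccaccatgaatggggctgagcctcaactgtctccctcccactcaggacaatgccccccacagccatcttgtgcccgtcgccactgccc

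Sema3g (GRCm38.p6, chr14:31217623-31217872, plus strand): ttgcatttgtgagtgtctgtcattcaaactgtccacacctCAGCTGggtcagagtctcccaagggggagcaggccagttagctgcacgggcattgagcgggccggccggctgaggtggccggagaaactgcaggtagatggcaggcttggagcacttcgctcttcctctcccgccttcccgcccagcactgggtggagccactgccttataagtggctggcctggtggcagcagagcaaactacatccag

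Sema6c (GRCm38.p6, chr3:95164089-95164338, plus strand): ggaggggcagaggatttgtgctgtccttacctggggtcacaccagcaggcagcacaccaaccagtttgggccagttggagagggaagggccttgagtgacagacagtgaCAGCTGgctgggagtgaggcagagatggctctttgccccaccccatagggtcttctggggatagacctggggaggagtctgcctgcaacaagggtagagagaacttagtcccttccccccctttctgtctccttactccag

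Of these 4 genes, 3 read higher and Sema3g lower in the array labelled double knockout, each by 1 probe set past 1.5-fold. A match is a description of these letters only, and binding was not measured.

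Class 3 semaphorins, secreted cues that repel or attract through neuropilins and plexins, had values on both sides of 0. On MOE430A, 3 of 5 passing probe sets were higher, against 49.9% of all, and the median log2 ratio was 0.17. On MOE430B 5 of 6 were lower, against 50.1%, with a median of -0.49. Sema3f, a repellent of axons and endothelium that binds Nrp2, read 340.3 and 893.9 by 1 probe set on MOE430A, 2.63-fold higher. Its other MOE430A probe set read 770.4 and 1160, 1.51-fold higher. The MOE430B probe set of Sema3f went the other way, with 9989 and 6232, 1.6-fold lower, so no direction can be given for the gene. That probe set is of a type that may cross-hybridise. Sema3g, a semaphorin of arterial endothelium, read 3903 and 2466, 1.58-fold lower by its only probe set.

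Smaller differences came from the other members of class 3. Sema3d, a cue of endothelial and neural crest cells, was lower by both its probe sets, with 2586 and 1801 by the brighter and 1235 and 902.9 by the dimmer, 1.44-fold and 1.37-fold. These probe sets lay near each other, unlike those of Sema3f. Sema3a, the founding repellent of the class, read 2307 and 2184, and 950.3 and 840.7, log2 ratios of -0.08 and -0.18. Sema3c, which has been studied in outflow tract and lung development, read 1401 and 1574 on MOE430A and 6035 and 5978 on MOE430B, and Sema3e, the ligand of Plxnd1, read 2792 and 2927. The last 3 genes differed by no more than the SD of a single ratio.

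Semaphorins of classes 4 to 7, which are bound to the membrane, had 6 of 9 passing probe sets higher on MOE430A (median 0.33) and 5 of 9 on MOE430B (median 0.05). Of all passing probe sets 49.9% were higher on either design. Sema4b read 854.8 and 1652, 1.93-fold higher, by 1 passing probe set, while its other probe set, at 209.5 and 118.6, was under the floor in both. Sema6c was at least 2.84-fold higher by a probe set that read 274.6 and 805.1, the former under the floor. Its brighter probe set gave 1698 and 2130, 1.25-fold higher.

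Sema5b, a semaphorin of the class that carries thrombospondin repeats, was higher on both designs, with 605.8 and 857.3 on MOE430A (1.42-fold) and 304.7 and 970.0 on MOE430B (3.18-fold). The wild type signal on MOE430B was close to the floor of 278.1. Both Sema5b probe sets passed only through the array labelled double knockout, so the filter fixed their shared direction. For Sema6d, a ligand of Plxna1, the brightest probe set read 16743 and 14413, 1.16-fold lower, whereas a dimmer one read 2142 and 642.0, 3.34-fold lower. The other MOE430B probe set of Sema6d read 1680 and 1752, and the one on MOE430A 1549 and 1108. Over these 4 the log2 ratio ran from -1.74 to 0.06, so the size for the gene depended on the probe set.

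Of the remaining semaphorins, Sema7a, which is held by a lipid anchor and binds Plxnc1, read 1740 and 2353, a log2 ratio of 0.44, and Sema6a, a ligand of Plxna2 and Plxna4, 2549 and 3466, also 0.44. Sema4d, the ligand of Plxnb1 that lymphocytes carry, read 2321 and 1829, a log2 ratio of -0.34. In the same arrays the T lineage markers were lower, with summed signals of 40115 and 5405 over 16 probe sets, and their part in the value of Sema4d was not tested. Sema4g (862.1 and 629.8) had -0.45. Sema4c (5335 and 4520) had -0.24. Sema4f was 0.17 and 0.22 by its probe sets on the 2 designs. Sema5a, the relative of Sema5b, read 4901 and 5058 by its brighter probe set and 1072 and 864.7 by the dimmer, log2 ratios of 0.05 and -0.31. None of these passed 1.5-fold.

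**Figure D2:**
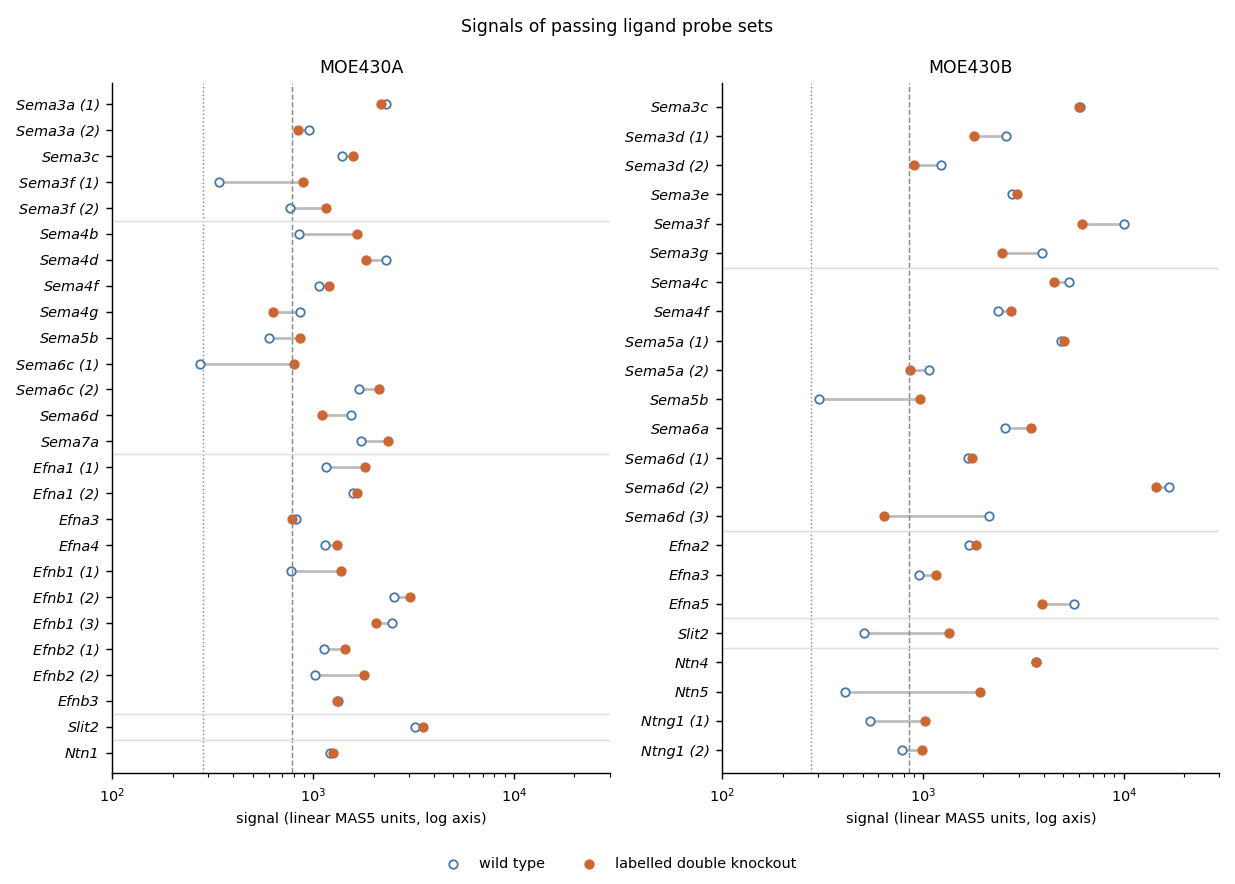
Signals of every passing ligand probe set in the wild type array (open circles) and the labelled double knockout array (filled circles), on a log axis, by design, with numbers in brackets for several probe sets of a gene. Dotted and dashed lines mark the floor and the filter of the design, thin lines part the families, and the longest gaps (Ntn5, Sema5b, Sema6d, Sema6c) start or end near or below the filter.

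Ephrins had 7 of 10 passing probe sets higher on MOE430A, the share of the guidance families as a whole (69.8%), against 49.9% of all probe sets. At least 1.5-fold higher were 3, against 6.38% of all, 0 were that much lower, and the median was 0.24. Efnb2, the ephrin of arterial endothelium, read 1026 and 1783 (1.74-fold higher) and 1139 and 1446 (1.27-fold higher) by its passing probe sets. Its 2 others did not pass and read lower, 452.2 and 141.8, and 769.4 and 495.2, so the direction for Efnb2 holds for the passing probe sets only. Efnb1, the X-linked ephrin of mesenchyme and other tissues, had 776.3 and 1380 by its dimmest probe set (1.78-fold higher). The brighter ones of Efnb1 read 2518 and 3044, and 2466 and 2058, and lay on opposite sides of 0 with log2 ratios of 0.27 and -0.26.

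Efna1, an ephrin of endothelium and epithelium, was 1.56-fold higher by 1 probe set (1154 and 1804) and 1.05-fold by the other (1578 and 1662). Efna5, a repellent of retinal and other axons, read 5670 and 3936 on MOE430B, 1.44-fold lower, the lowest ratio among passing ephrin probe sets. On MOE430A the Efna5 probe set did not pass, at 28.3 and 295.6. The rest of the ephrins were closer to 0. Efna4 had a log2 ratio of 0.20, Efna2 0.11, Efnb3 -0.02, and Efna3 -0.06 on MOE430A and 0.28 on MOE430B.

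Slit2, a secreted repellent made by mesenchyme and many other tissues, was the Slit with passing probe sets. Its bright probe set on MOE430A read 3210 and 3542, 1.10-fold higher, and its probe set on MOE430B 508.0 and 1346, 2.65-fold higher. The direction was shared and the size was not, and the MOE430B probe set passed only through the array labelled double knockout. A further probe set of Slit2 on MOE430A, at 496.1 and 498.9, did not pass and was level.

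Netrins included the largest ratio of all members with both signals above the floor. Ntn5, a laminin-related netrin, read 410.0 and 1916 on MOE430B, 4.67-fold higher, by its only probe set. The better known netrins differed by less than 1.04-fold. Ntn1, the classical attractant of commissural axons, read 1213 and 1254, and Ntn4, a netrin of basement membranes, read 3652 and 3646 on MOE430B. Ntng1, a netrin held at the membrane by a lipid anchor, was higher by both passing probe sets, with 547.7 and 1027 (1.87-fold) and 788.3 and 994.0 (1.26-fold). Both of these and the Ntn5 probe set passed only through the array labelled double knockout, so the filter fixed their direction.

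Plexins, the semaphorin receptors, stayed close to 0 on MOE430A, where 8 of 11 probe sets passed and the median was 0.10. Of those passing, 6 were higher, against 49.9% of all. Past 1.5-fold were 0, against 6.38% of all higher and 7.31% lower. Plxnd1, the endothelial receptor of Sema3e, read 2845 and 3058, and Plxnb2, a widely expressed receptor of class 4 semaphorins, 4674 and 4363. Both were bright and within 1.08-fold. Plxna3, an X-linked partner of neuropilins, read 990.4 and 1376, a log2 ratio of 0.47. The median of the 10 passing plexin probe sets on MOE430B was -0.01, with values from -1.71 to 1.98.

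Large plexin ratios on MOE430B were not shared by other probe sets of the same gene. Plxnb3, an X-linked receptor of Sema5a, read 2037 and 8019, 3.94-fold higher, by a probe set that may cross-hybridise, against 778.7 and 809.1 on MOE430A. Plxna4, a receptor of class 3 and class 6 semaphorins, read 2416 and 737.5 (3.28-fold lower) by 1 probe set and 5383 and 5795 by the brighter. Plxnc1, the receptor of Sema7a, was 1.78-fold lower on MOE430B (1981 and 1114, also by a probe set that may cross-hybridise), while its 3 passing probe sets on MOE430A had log2 ratios from -0.16 to 0.25. The remaining plexins were level. Plxna1 had -0.03, Plxnb1 -0.14 and 0.06, and Plxna2 from -0.30 to 0.20 over 4 probe sets.

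Of the EphA receptors, which bind mainly the lipid-anchored A ephrins, few probe sets passed. On MOE430A 3 of 16 did, all 3 higher, against 49.9% of all passing probe sets. On MOE430B 4 of 8 did, all 4 lower, against 50.1%. The filter fixed some of these directions. Epha3 and Epha4 on MOE430A passed only through the array labelled double knockout, and Epha5 on MOE430B only through wild type. Epha2, an epithelial and endothelial receptor of Efna1, read 859.3 and 1438, 1.67-fold higher by its only probe set. Epha7 read 2565 and 1472 on MOE430B, 1.74-fold lower, and its 3 probe sets on MOE430A did not pass. Epha5 was 946.1 and 678.8 on MOE430B, a log2 ratio of -0.48. Epha3 and Epha4, receptors of mesenchymal and neural cells, lay on opposite sides of 0 on the designs, at 0.17 and -0.03 for Epha3 and 0.22 and -0.25 for Epha4. These differences were within the SD of a single ratio or near it.

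EphB receptors, which bind B ephrins, were within 1.5-fold. Ephb4, the venous partner of Efnb2, read 2477 and 2227, a log2 ratio of -0.15, while the passing probe sets of Efnb2 had 0.34 and 0.80. Ephb3 read 993.7 and 1315 (0.40), and Ephb1 1804 and 2599 on MOE430B (0.53).

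Robo4, the endothelial member of the Slit receptor family, read 1473 and 1617, and Robo1, which is found in epithelium and mesenchyme, 1462 and 1582, and 1301 and 1392. All 3 log2 ratios lay between 0.10 and 0.14. Robo3, known from commissural axons, read 141.7 and 1007 on MOE430B, at least 3.62-fold higher, while its MOE430A probe set read 321.0 and 349.5 and did not pass. Markers of peripheral neurons gave no shared direction beside it, with 3 of 6 passing probe sets higher on MOE430A and 1 of 2 on MOE430B. These shares were near the 49.9% of all on either design. Tubb3, Snap25 and Elavl3 were below the floor in both arrays, and only 5 of 14 neuronal genes on MOE430A passed.

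Unc5 receptors, which mediate repulsion by netrins, had 2 of 3 passing probe sets lower on MOE430A and 3 of 3 on MOE430B. Of all passing probe sets 50.1% were lower on either design. Unc5b on MOE430A and Unc5d on MOE430B passed only through wild type, so the filter fixed their direction. Unc5b, a receptor of arterial and tip cell endothelium, read 1779 and 569.8 on MOE430A, 3.12-fold lower and the lowest ratio of all members on that design. On MOE430B its other probe set read 2155 and 1753, 1.23-fold lower. Endothelial markers showed no general difference in these arrays, with a median of 0.09 over 15 passing probe sets on MOE430A and summed signals of 44346 and 46337 over 19. Flt1, 1 of those markers, read 1042 and 298.9 by its only passing probe set on MOE430A and 2067 and 2168 on MOE430B.

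On MOE430B the other Unc5 receptors were further below wild type than Unc5b. Unc5d read 1182 and 763.7, 1.55-fold lower, and Unc5a 2139 and 1625, 1.32-fold lower, each by its only probe set on MOE430B. The 2 probe sets of Unc5c gave log2 ratios of -0.08 and 0.53 and so no direction for the gene. Of the genes that share only the prefix, Unc50 had log2 ratios of -0.27, 0.06 and 0.28 by its probe sets, and Unc5cl read 3714 and 2426, 1.53-fold lower.

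**Figure D3:**
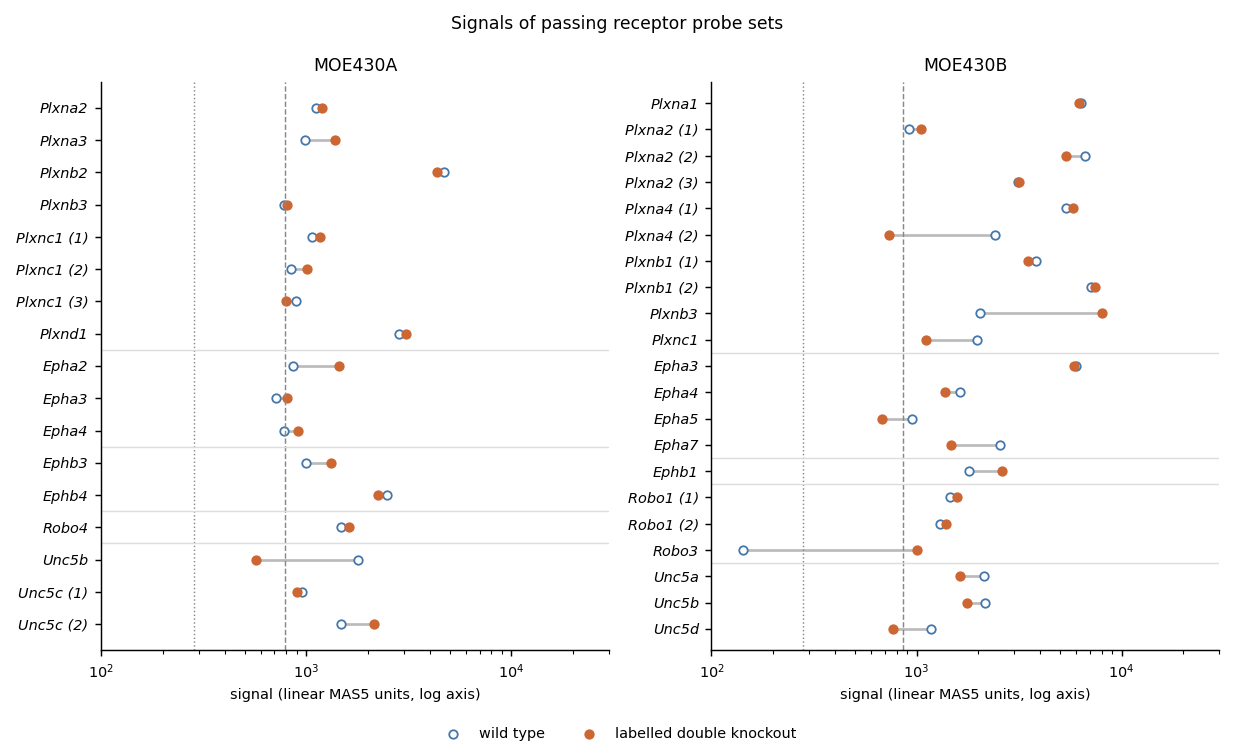
Signals of every passing receptor probe set in the wild type array (open circles) and the labelled double knockout array (filled circles), on a log axis, by design, with numbers in brackets for several probe sets of a gene. Dotted and dashed lines mark the floor and the filter, and the widest gaps are those of Unc5b on MOE430A and Plxna4, Plxnb3 and Robo3 on MOE430B.

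Different probe sets of a gene gave the only internal check on a value. Of 25 guidance genes with several passing probe sets, 12 had all of them in the same direction and 13 did not, and in 10 genes the log2 ratios spanned more than 1. In 5 genes, Sema3f, Sema6d, Plxna4, Plxnc1 and Efnb1, they spanned more than 1 and lay on opposite sides of 0. Of 22 probe sets past 1.5-fold, 15 had another passing probe set for the same gene, and for 2 of these, both of Sema3f, that other probe set was past 1.5-fold in the same direction. These Sema3f probe sets passed only through the array labelled double knockout, so the filter fixed that direction.

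Between the designs, 13 genes passed on each. Their mean log2 ratios shared a sign in 6 genes (Plxnb3, Sema4f, Sema5b, Sema6d, Slit2 and Unc5b) and did not in 7. Unc5b had -1.64 on MOE430A and -0.30 on MOE430B, Sema5b 0.50 and 1.67, and Slit2 0.14 and 1.41. In each of these 3 the direction was kept and the larger value was more than 3 times the smaller on the log2 scale. The filter fixed some of the shared directions. Sema5b on both designs, Slit2 on MOE430B and Plxnb3 on MOE430A passed only through the array labelled double knockout. Unc5b on MOE430A and 1 Sema6d probe set on MOE430B passed only through wild type. Whether the arrays of a genotype share an RNA sample is not stated, so the comparison of designs is a check of probes and not of animals.

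**Figure D4:**
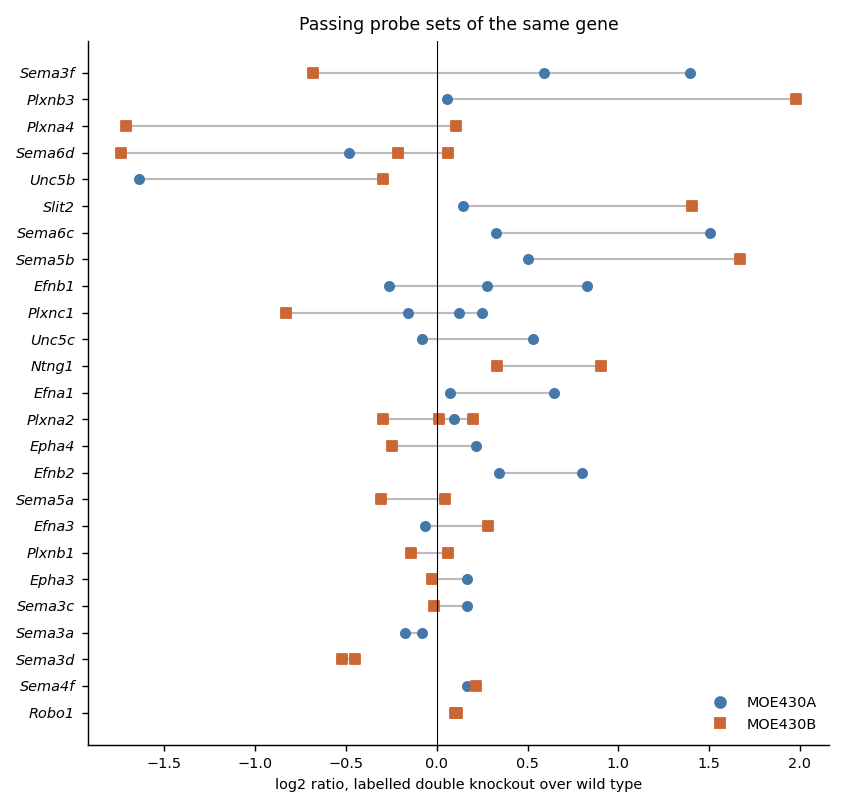
Log2 ratios of the passing probe sets of the 25 guidance genes with more than 1, ordered by their span, with circles for MOE430A and squares for MOE430B. Genes at the bottom, such as Robo1, Sema4f and Sema3d, have points close together, and those at the top, led by Sema3f, have points on both sides of 0 or more than 1 apart.

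Co-receptors, other guidance receptors and other cues, a list of 32 genes, had 9 of 21 passing probe sets higher on MOE430A (42.9%, median -0.08) and 23 of 34 on MOE430B (67.6%, median 0.17), against 49.9% of all on either design. At least 1.5-fold higher were 0 on MOE430A, against 6.38% of all, and 6 on MOE430B (17.6%), near the 18.6% of all. That much lower were 2 (9.52%, against 7.31%) and 1 (2.94%, against 15.5%). The neuropilins were mostly level. Nrp1, the co-receptor of Sema3a, read 7334 and 6868 and 3370 and 4029 by its bright probe sets on MOE430A but 1799 and 3972 by another on MOE430B, 2.21-fold higher. Neo1, neogenin, read 2755 and 2150 on MOE430A, a log2 ratio of -0.36, while its bright probe sets on MOE430B were 1.11-fold and 1.22-fold higher. Nrp2, the co-receptor of Sema3f, had a log2 ratio of -0.03 on MOE430B by its brightest.

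By the rule on bright probe sets, the lowest of this list on MOE430A were Cxcl12, a chemokine (4713 and 2564, 1.84-fold lower), Adam10, a protease that sheds ephrins (-0.44), and Neo1. The highest were L1cam, an adhesion molecule of axons (1433 and 2119, 0.56), and 2 probe sets of Ryk, a Wnt receptor (0.47 and 0.37). On MOE430B, Flrt2 (-0.58), Flrt3 (-0.50) and Met (-0.43) were lowest, and Nrp1, Rgmb, a ligand of neogenin (0.65), and Fzd3 (0.60) highest. Another bright probe set of Flrt3 had 0.48 and another of Rgmb -0.12, so the direction of either gene is not settled. Most of these ratios were within 1.5-fold, and the list shows no shared direction over both designs.

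Intracellular effectors, 53 genes that carry guidance signals to the cytoskeleton, had 28 of 49 passing probe sets higher on MOE430A (57.1%, median 0.05) and 15 of 34 on MOE430B (44.1%, median -0.15), against the same 49.9%. At least 1.5-fold higher were 3 (6.12%) and 4 (11.8%), and that much lower 1 (2.04%) and 7 (20.6%), against the shares of all given above. The bright extremes on MOE430A were Srgap2, a Slit-Robo GTPase activating protein (1288 and 2038, 0.66), and Arhgef12, a partner of B plexins, by 2 probe sets (0.50 and 0.38), against Rock1, a kinase that acts on the cytoskeleton (1938 and 1260, -0.62), Mical2 (-0.35) and Rasa1 (-0.24). On MOE430B they were Evl (0.53), Rnd1 (0.38) and Arhgef11 (0.29), against Gsk3b (-0.73), Srgap1 (-0.70) and Ablim1 (-0.65). Some had other values by other bright probe sets of the gene on MOE430B, where Arhgef12 had -0.58 and Arhgef11 -0.35, and the 2 bright probe sets of Srgap2 had 0.12 and -0.20.

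**Figure D5:**
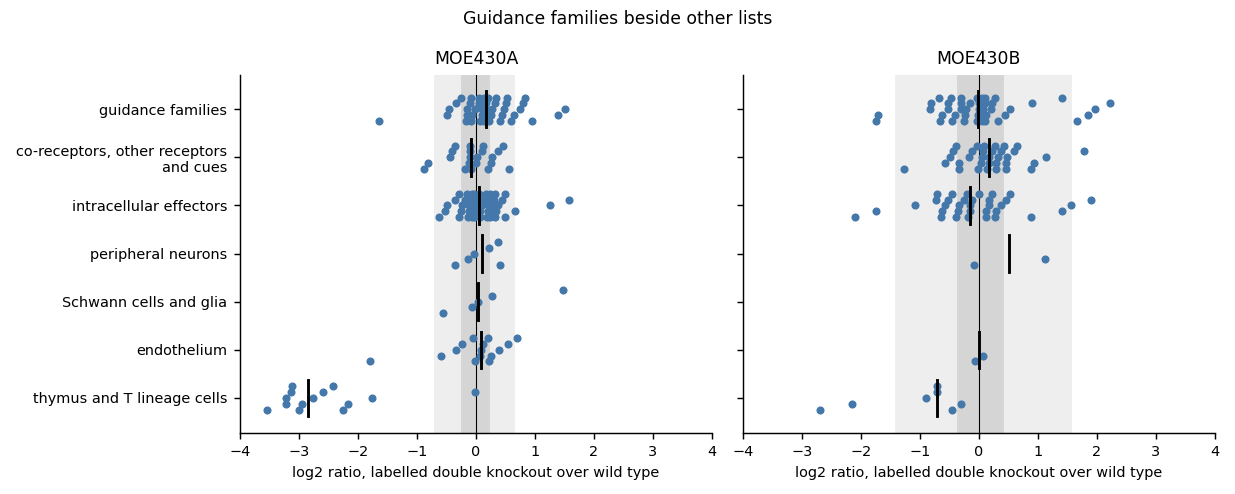
Log2 ratios of passing probe sets (points, with the median as a bar) of the guidance families beside other pathway lists and cell type marker lists, by design, where values with 1 signal below the floor are drawn at their bound. Grey bands hold the middle 50% and 90% of all passing probe sets, and the thymus and T lineage list stands apart with a median of -2.85 on MOE430A, while the guidance families have 0.17.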

How the data were processed

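The authors deposited intensities, 1 linear signal for each probe set of an array. They were made with MAS5, per the submitters' processing notes. MAS5 detection calls, and the version and settings behind them, were not used here. Each deposited array had a 2% trimmed mean of about 1500, so arrays had been scaled singly, and ratios were formed only within a design, since the 100 shared probe sets read a median 4.02-fold higher on MOE430B.

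Affymetrix controls, 64 on each design, were dropped. Signals of the array labelled double knockout were divided by 1.004 (MOE430A) or 1.008 (MOE430B), so that the median ratio of passing probe sets was 1. Signals below the 25th percentile (283.8 and 278.1) were then set to that floor, which makes the ratio a lower bound, and log2 ratios were taken. Gene names came from the platform annotation in GEO, in which 20380 and 14661 had 1 gene, 691 and 245 several and 1555 and 7605 none. All 70 member genes matched the RefSeq table of GRCm38.p6 by Entrez identifier. Probe sets with names ending in _x_at or _s_at may cross-hybridise.

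With 1 array per genotype and design no test was run. Members and lists were chosen with earlier results of these data known. Named were the passing probe sets highest in signal per family, those past 1.5-fold, genes with probe sets in opposite directions more than 1 apart, and, in the pathway lists, the 3 highest and 3 lowest bright probe sets per design. Other members are named for completeness. Steps were tested on simulated arrays, with changes planted only in bright probe sets and noise below the SD of a single ratio. Recovery of changes in dim probe sets was therefore not tested. The work used python 3.11.15 with numpy 2.4.6 and pandas 2.3.3.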

Additional observations from a re-analysis of the deposited data

How the results depend on the processing

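No paired analysis was possible because each genotype has 1 array per design. The median over all members on MOE430A was 0.17 with signals as deposited, 0.20 after quantile normalization and 0.19 with a loess curve removed, and 0.09 when filtered and scaled on the 75th percentile. With the floor at the median, 5 members were at least 1.5-fold higher on MOE430A and 0 at least 2-fold, and 3 and 2 on MOE430B. Removing the loess curve left 3 and 3 on MOE430B, where 12.2% of all were at least 1.5-fold higher. It gave an EphA median of 0.51 on MOE430A over 4 probe sets and a netrin median of 0.12 on MOE430B. Without a filter, 30 members were lower on MOE430A (45 higher, median 0.00) and 3 at least 1.5-fold lower, against 6.32% of all. The median of the class 4 to 7 semaphorins there was then 0.00, and that of netrins on MOE430B 0.34. With the filter at the 75th percentile, 6 members were higher and 5 lower on MOE430A, with 0 past 1.5-fold or 2-fold in either direction. Of all probe sets 4.13% were there at least 1.5-fold higher and 5.31% lower. On MOE430B the counts were 13 and 13, with 1 at least 1.5-fold and 1 at least 2-fold higher. There 12.7% of all were at least 1.5-fold higher. Without probe sets that may cross-hybridise, 2 were at least 1.5-fold lower on MOE430A, against 7.17% of all. With the mean over the probe sets of a gene, 4 genes were at least 1.5-fold and 0 at least 2-fold higher on MOE430A, and 13 higher and 0 at least 2-fold lower on MOE430B. With 1 probe set per gene the counts were 4, 0 and 0, and the netrin median on MOE430B was 0.33. Shares over all genes were not computed for either setting by gene, nor shares at 2-fold under any changed setting. The floor at the median gave a netrin median of 0.24. With the filter and floor of MOE430A carried to the scale of MOE430B, chosen after seeing the data, 16 members passed there, 5 higher and 11 lower, 1 past 1.5-fold and 1 past 2-fold on the higher side, 2 and 0 on the lower. Of all probe sets passing there, 7.15% were at least 1.5-fold higher and 9.03% lower. Family medians were compared only over 3 or more probe sets. The filter also sets which probe sets scale the arrays, so both move together under it, and the cause of the other changes was not tested. Single ratios that lean on dim signals moved most with the floor at the median, where Sema3f (1.39) gave 0.18, Sema6c (1.5) 0.03, Sema5b on MOE430B (1.67) 0.18, Robo3 (1.86) 0.24, Ntn5 (2.22) 1.16 and Unc5b (-1.64) -1.18.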

Other observations

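Cxcl12, a chemokine made by stromal cells that guides migrating cells, and its receptor Cxcr4 read lower in the arrays labelled double knockout by every passing probe set. These genes were singled out after their values were seen. Cxcl12 read 4713 and 2564, and 3568 and 3343, on MOE430A and 1365 and 565.6 on MOE430B, log2 ratios of -0.88, -0.09 and -1.27. The MOE430B probe set of Cxcl12 passed only through wild type, so the filter fixed its direction. The ratio of -0.09 was within the SD of a single ratio. Cxcr4 read 1486 and 847.4, a log2 ratio of -0.81. Lymphocyte precursors carry Cxcr4, and the thymus and T lineage markers were lower in the same arrays, with summed signals of 18186 and 8749 over 8 probe sets on MOE430B. Their part in these values was not tested.

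Dcc, the attractive netrin receptor of neurons, passed by 1 probe set with 1034 and 776.4, and its 2 probe sets on MOE430B read between 88.5 and 105.0, under the floor in both arrays. Among markers of Schwann cells and glia, 3 of 5 passing probe sets on MOE430A were higher, near the 49.9% of all. The lower ones were both of Mbp, with log2 ratios of -0.07 and -0.56. Erbb3 read 3182 and 3824 and Sox10 1305 and 1339, and S100b did not pass. Gfap read 164.3 and 792.5 by 1 probe set, which passed only through the array labelled double knockout, so the filter fixed its direction. Another Gfap probe set, at 279.9 and 196.6, did not pass.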
